A study of Homo sapiens with 18 samples.

Results

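STAT and JAK genes were followed in 18 RNA-seq libraries of THP-1, a monocyte-like line from a human leukaemia. The genes were 6 STATs (STAT2, STAT3, STAT4, STAT5A, STAT5B and STAT6) and 3 Janus kinases (JAK1, JAK2 and JAK3), taken as the rows of the deposited count tables whose gene identifier carries one of these symbols in GENCODE 29. They make up 9 of the 57500 genes counted, and each of the 9 symbols matched 1 row.

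Cells had been transduced with lentiviral particles carrying a non-target shRNA (shNT), an shRNA against NR4A2 (shNR4A2) or an shRNA against NR4A3 (shNR4A3). NR4A2 and NR4A3 are nuclear orphan receptors, transcription factors that are themselves switched on rapidly by inflammatory signals. Each line was kept without LPS (control) or given LPS, the bacterial lipopolysaccharide sensed through TLR4, at 2.5 µg/ml for 2 h, with 3 libraries in each of the 6 groups. All groups therefore carry a lentiviral shRNA, including the controls, no parental THP-1 libraries were analysed here, and each line stands for 1 hairpin construct as far as the labels tell. Total counts ran from 16171161 to 23929138 per library with a median of 19639071, and no pair of libraries was identical. The study describes its replicates as independent experiments. The labels do not say whether they came from separate cultures, so p-values measure the spread between these samples, which may be technical.

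The hairpins were checked on their targets first. NR4A2 in the LPS libraries of replicates 1 to 3 stood at 62.2, 74.7 and 51.3 TPM (a count corrected for gene length and library size) in shNT and at 20.5, 28.3 and 14.8 TPM in shNR4A2, a log2 fold change of -1.52 (SE 0.189, edgeR adjusted p = 0.00265). NR4A3 in the LPS libraries stood at 30.9, 32.3 and 31.9 TPM in shNT and at 17.0, 18.2 and 16.7 TPM in shNR4A3, a log2 fold change of -0.82 (SE 0.0796, edgeR adjusted p = 0.000556). Neither pair of groups overlapped, and both transcripts were still detected in the line carrying the hairpin against them. Monocyte markers were present throughout, with counts for 8 of 8 listed genes (among them CD14, LYZ and SPI1) in every library and a summed level of 1223 to 3367 TPM. The most abundant of them was CEBPA in each control library (804 to 1281 TPM) and SPI1 in each LPS library (681 to 1132 TPM). The summed level of the 8 genes differed between the groups compared here. In control libraries it was 1917 to 2262 TPM in shNT, 2486 to 2702 in shNR4A2 and 2934 to 3367 in shNR4A3. With LPS it was 1223 to 1505, 1790 to 2066 and 2133 to 2437 TPM in the same order. T cell markers summed to 0 to 1.31 TPM, NK cell markers to 0.661 to 1.78 TPM and B cell markers to 3.29 to 6.77 TPM, whereas the epithelial marker EPCAM reached at most 0.332 TPM.

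Janus kinases sit on the inner tails of cytokine receptors and phosphorylate the receptor and the STAT proteins that dock there, and the phosphorylated STATs pair up, enter the nucleus and bind DNA. STAT2 works with IRF9 downstream of type I interferon, STAT3 responds to IL-6 and IL-10, STAT4 to IL-12, STAT5A and STAT5B to growth factors such as GM-CSF and to IL-2 family cytokines, and STAT6 to IL-4 and IL-13. JAK1 and JAK2 serve many receptors, while JAK3 pairs with the common gamma chain IL2RG and is known mainly from lymphocytes. The pathway is controlled largely by phosphorylation, which RNA levels do not show.

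The 9 genes lie on 6 chromosomes, given here on GRCh38 as in the count tables. STAT5B (chr17:42199168-42276707, minus strand), STAT5A (chr17:42287547-42311943, plus strand) and STAT3 (chr17:42313324-42388568, minus strand) are neighbours, with 10839 bases between STAT5B and STAT5A and 1380 bases between STAT5A and STAT3. STAT2 (chr12:56341597-56360155) and STAT6 (chr12:57095408-57132139) share chromosome 12 at a distance of 735252 bases and both run on the minus strand. STAT4 lies at chr2:191029576-191151596 (minus strand), JAK1 at chr1:64833229-64966504 (minus strand), JAK2 at chr9:4984390-5128183 (plus strand) and JAK3 at chr19:17824780-17848071 (minus strand). Exons of other genes covered at most 2.56% of the exon length of any of the 9 genes, the highest being STAT4 with an antisense transcript.

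STAT5A and STAT5B arose by gene duplication and remain near-identical in places. The longest stretch shared letter for letter by their GENCODE 29 transcripts is 429 bases long and is coding in both, at chr17:42299764-42301277 across STAT5A exons and chr17:42218328-42219829 across STAT5B exons. Of the 150-base stretches of STAT5A transcripts, 280 (4.575%) also occur in STAT5B. The study sequenced paired reads of 150 bases. A read that falls wholly inside such a stretch cannot be assigned by its own sequence, though its mate may lie outside the stretch. How such reads were counted is not given in the sources used here. No other pair of the 9 genes shared a 50-base stretch.

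The start regions were read from RefSeq promoter windows (GRCh38.p14), which hold 17 start sites for the 9 genes, using the 250 bases before each start. The windows directly upstream of STAT4 and STAT5A are shown because these are the genes that were higher with LPS in each line (below). They lie at chr2:191151597-191151846 (minus strand) and chr17:42287297-42287546 (plus strand), are printed 5′ to 3′ and hold no annotated exon.
STAT4: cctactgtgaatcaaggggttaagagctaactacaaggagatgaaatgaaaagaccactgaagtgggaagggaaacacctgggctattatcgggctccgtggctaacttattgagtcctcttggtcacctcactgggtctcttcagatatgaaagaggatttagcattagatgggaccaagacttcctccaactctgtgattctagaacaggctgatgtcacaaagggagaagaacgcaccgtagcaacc
STAT5A: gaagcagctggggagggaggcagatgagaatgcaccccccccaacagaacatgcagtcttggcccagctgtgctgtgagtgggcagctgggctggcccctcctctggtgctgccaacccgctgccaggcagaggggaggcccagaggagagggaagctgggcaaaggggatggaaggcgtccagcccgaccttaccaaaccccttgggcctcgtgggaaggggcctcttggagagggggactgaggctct

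Each window was searched on both strands for the NBRE bound by NR4A receptors (AAAGGTCA), the GAS element of STAT dimers (TTCNNNGAA), the core of the interferon-stimulated response element, a kappaB site and the GC box (GGGCGG). Neither sequence above holds any of these motifs, so nothing in them is capitalised. Over the 17 windows an NBRE occurred once, at an additional STAT5A start site, and a kappaB match occurred once, at JAK3. They are shown with the match in capitals, at chr17:42288445-42288474 (plus strand, inside an annotated STAT5A exon) and chr19:17847993-17848022 (minus strand, inside an annotated JAK3 exon).
STAT5A site: tcgcaggcagcTGACCTTTgaggaggaaat
JAK3 site: ggagccgagtGGGACTTTCCtctcgctgcc
The STAT5A match is the NBRE read on the opposite strand, 42 to 35 bases before that start. Of 35116 windows of this length, 1.05% held an NBRE, 0.527% the kappaB letters, 6.57% a GAS and 3.02% the interferon core, and the 17 windows had no match for either of the last 2 motifs. A GC box occurred in 8 of the 17 windows (47.1%), near the 42.6% of the 35116 windows, and in neither STAT4 window. A match is a run of letters, not a measured binding site.

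Levels between genes were compared as TPM, the count divided by the deposited gene length and scaled to the same total in every library. In shNT control cells STAT6 was highest at 112.4 ± 8.33 TPM (mean ± SD, n = 3), followed by STAT3 (81.0 ± 3.79), JAK1 (73.2 ± 7.70), STAT5B (35.4 ± 1.21), JAK2 (31.1 ± 4.94), STAT2 (25.1 ± 4.12), STAT5A (15.8 ± 1.85), STAT4 (6.82 ± 2.02) and JAK3 (0.0867 ± 0.0573). The neighbours STAT3 and JAK1, STAT5B and JAK2, and JAK2 and STAT2 overlapped in their 3 libraries, and the other neighbours did not. STAT6 led and JAK3 came last in each of the 6 groups. STAT5A stood in the seventh place in each control group and in the fourth place in each LPS group, overlapping STAT5B in shNT, STAT3 in shNR4A2 and STAT2 in shNR4A3. STAT4 was in the eighth place in each group. In bulk RNA, fewer cells that express a gene and less RNA per cell cannot be told apart.

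**Figure D1:**
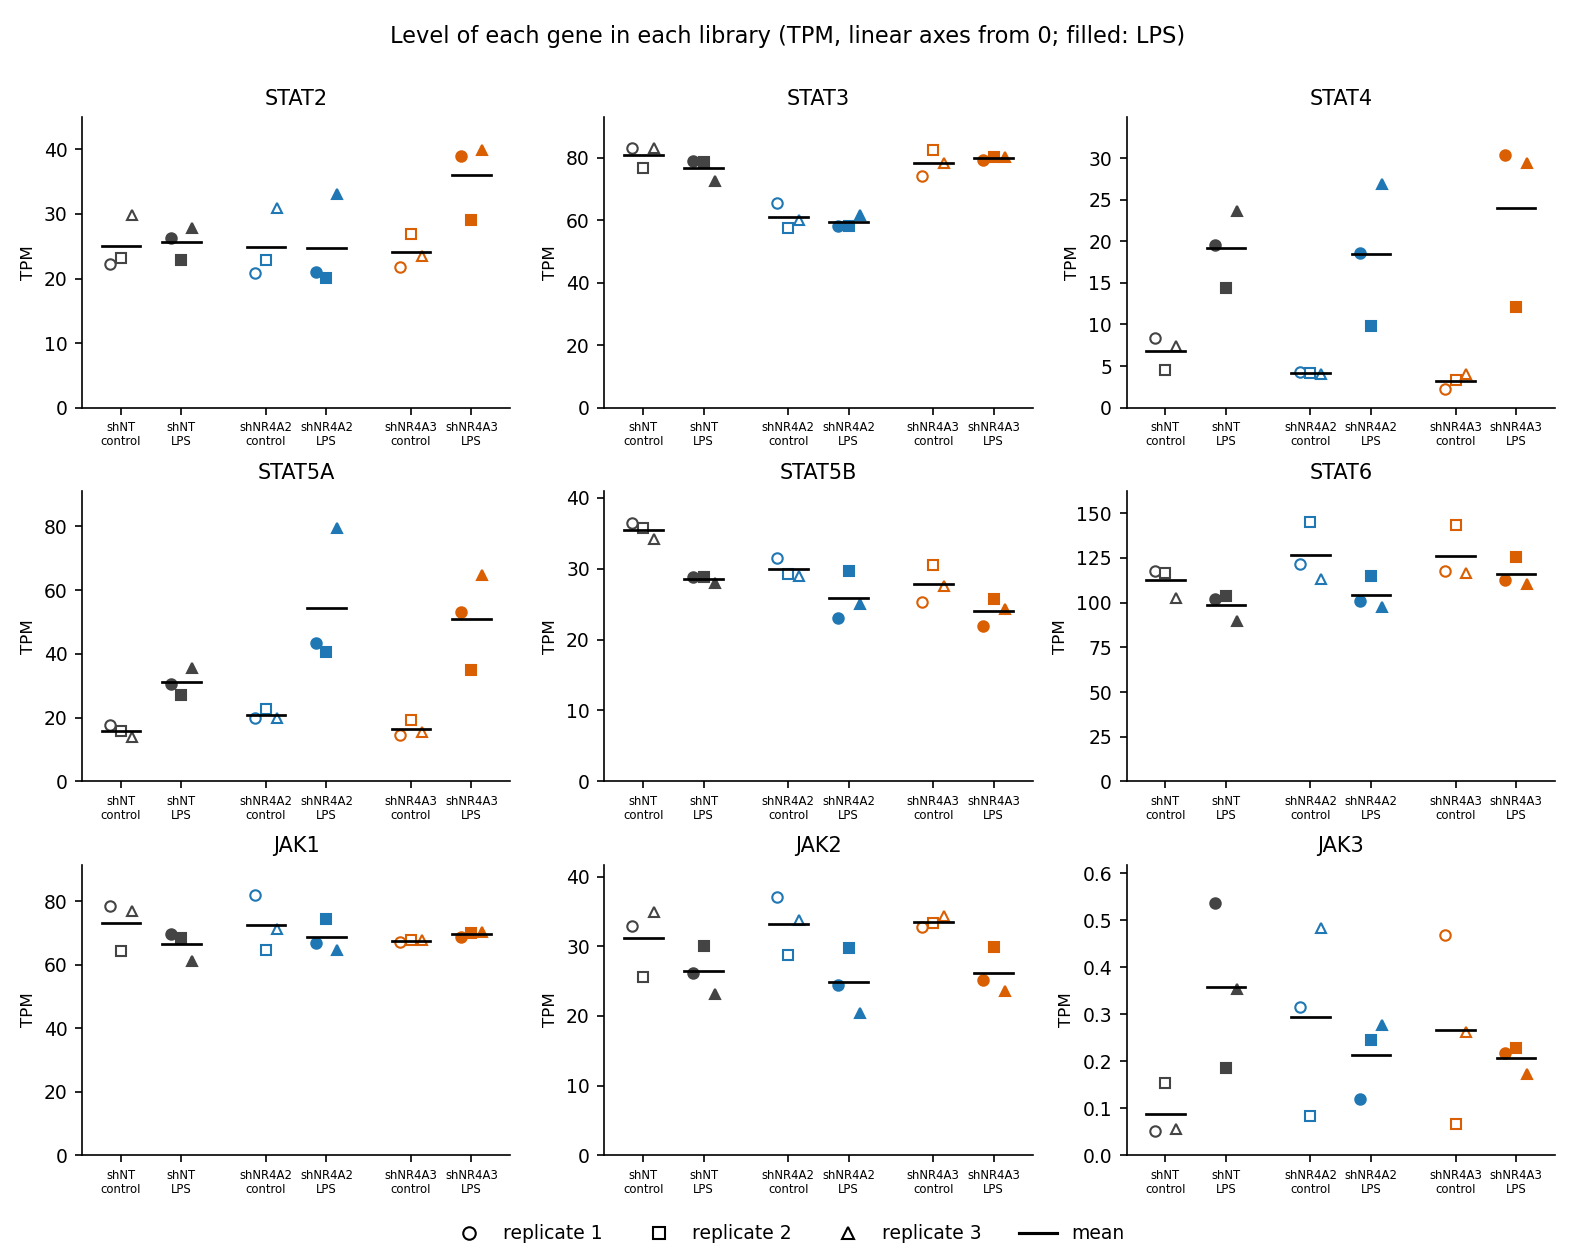
TPM (linear y axes from 0) of the 9 genes in each of the 18 libraries, with open symbols for control, filled symbols for LPS, symbol shape for the replicate number and a bar for the mean of 3 libraries. STAT4 and STAT5A show LPS libraries above the control libraries in each line, STAT3 sits lower in shNR4A2, and JAK3 stays under 0.6 TPM.

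The first comparison asked how the 9 genes respond to LPS in each line. STAT4 and STAT5A were higher with LPS in all 3 lines, and STAT2 was higher in shNR4A3, whereas log2 fold changes of STAT3, STAT5B, STAT6, JAK1 and JAK2 lay between -0.16 and 0.27. Differences were tested with edgeR on the counts, and a gene was called at an adjusted p under 0.05. In shNT 2 of the 8 genes tested were called, where 24.9% of all 15711 genes tested were. In shNR4A2 2 of 9 were called against 19.3% of all genes, and in shNR4A3 5 of 8 against 28.1%. With the replicate block the counts of STAT and JAK genes in shNR4A2 and shNR4A3 were also 2 and 5, where 30.1% and 39.4% of all genes were called. The median log2 fold change of the tested STAT and JAK genes was 0.11, 0.18 and 0.265 in shNT, shNR4A2 and shNR4A3, and that of all genes tested was -0.01, -0.02 and -0.01. In TPM, control and LPS libraries did not overlap for 4, 2 and 5 of the 9 genes in shNT, shNR4A2 and shNR4A3, and for 48.5%, 46% and 51.6% of all genes tested. On the edgeR scale, an alternative chosen after seeing the data, the counts were also 4, 2 and 5. There STAT3 took the place of STAT5B in shNT and of JAK2 in shNR4A3. The shares of all genes on that scale are not given here.

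STAT4, the mediator of IL-12 signalling, stood at 8.43, 4.56 and 7.47 TPM in shNT control libraries and at 19.5, 14.3 and 23.7 TPM with LPS. In shNR4A2 it went from 4.27, 4.13 and 4.03 TPM to 18.6, 9.85 and 26.9 TPM, and in shNR4A3 from 2.25, 3.30 and 4.08 TPM to 30.3, 12.2 and 29.4 TPM. The groups did not overlap in any line, and replicate 2 was the lowest of the LPS libraries in each. The log2 fold change was 1.72 in shNT (SE 0.215, edgeR adjusted p = 4.55e-05), 2.44 in shNR4A2 (SE 0.308, edgeR adjusted p = 0.000134) and 3.15 in shNR4A3 (SE 0.355, edgeR adjusted p = 6.9e-05), that is 3.28-fold, 5.44-fold and 8.90-fold. STAT4 remained called with any 1 library left out.

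STAT5A, a STAT of growth factor and cytokine receptors, stood at 17.6, 15.8 and 13.9 TPM in shNT control libraries and at 30.6, 27.1 and 35.6 TPM with LPS. In shNR4A2 it went from 19.8, 22.6 and 19.9 TPM to 43.5, 40.5 and 79.5 TPM, and in shNR4A3 from 14.5, 19.1 and 15.4 TPM to 53.1, 35.0 and 64.7 TPM. Each LPS library was above each control library of its line, with replicate 3 the highest and replicate 2 the lowest among the LPS libraries. The log2 fold change was 1.20 in shNT (SE 0.135, edgeR adjusted p = 1.73e-05), 1.67 in shNR4A2 (SE 0.229, edgeR adjusted p = 0.000256) and 1.88 in shNR4A3 (SE 0.204, edgeR adjusted p = 6.02e-05). These calls also held with any 1 library left out.

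STAT2, the interferon-response partner of IRF9, stood at 21.9, 26.8 and 23.5 TPM in shNR4A3 control libraries and at 39.0, 29.1 and 39.9 TPM with LPS. These groups did not overlap, and the log2 fold change was 0.82 (SE 0.143, edgeR adjusted p = 0.00137). In shNT it stood at 22.3, 23.1 and 29.8 TPM without and at 26.2, 22.8 and 27.8 TPM with LPS, and in shNR4A2 at 20.9, 22.9 and 31.0 TPM without and at 21.1, 20.0 and 33.1 TPM with LPS. Both of those pairs overlapped, with log2 fold changes of 0.26 (SE 0.119, edgeR adjusted p = 0.14) and 0.27 (SE 0.209, edgeR adjusted p = 0.416). IRF9 itself was higher with LPS in shNT (log2 fold change 0.58, SE 0.171, edgeR adjusted p = 0.0236) and in shNR4A3 (0.86, SE 0.161, edgeR adjusted p = 0.00213), and its value in shNR4A2 was 0.47 (SE 0.231, edgeR adjusted p = 0.18).

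STAT3, the STAT of IL-6 and IL-10, was called in shNR4A3 at a log2 fold change of 0.26 (SE 0.0793, edgeR adjusted p = 0.0322), as was JAK1 at 0.27 (SE 0.0824, edgeR adjusted p = 0.0289). Both calls were lost when any 1 of 5 of the 6 libraries was left out, with adjusted p up to 0.118 for STAT3 and 0.107 for JAK1; both were kept without LPS replicate 2. The TPM of STAT3 overlapped between control (74.2, 82.6 and 78.3) and LPS (79.2, 80.1 and 80.2) in shNR4A3. On the edgeR scale its control and LPS libraries did not overlap in shNR4A3 or in shNT. A scale difference matters here, since the median gene was lower with LPS by 0.219, 0.266 and 0.228 (log2) in TPM than in the edgeR scaling in shNT, shNR4A2 and shNR4A3. For STAT5B, STAT6 and JAK2, whose mean TPM was lower with LPS in each line, the edgeR log2 fold changes lay between -0.16 and 0.11, and none was called.

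JAK3 was close to the detection limit. It received 2, 5 and 2 counts in shNT control libraries and 21, 7 and 15 with LPS, groups that did not overlap. In shNR4A2 it received 14, 3 and 20 counts without and 4, 9 and 11 with LPS, and in shNR4A3 16, 2 and 9 counts without and 8, 7 and 7 with LPS, groups that did overlap. Its counts were too low to be tested by edgeR in shNT and shNR4A3, and 3 libraries against 3 cannot give an exact 2-sided permutation p under 0.1, the value found for its TPM in shNT. At this depth no LPS effect on JAK3 was detectable in shNR4A2 (log2 fold change -0.20, SE 0.556, edgeR adjusted p = 0.837).

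**Figure D2:**
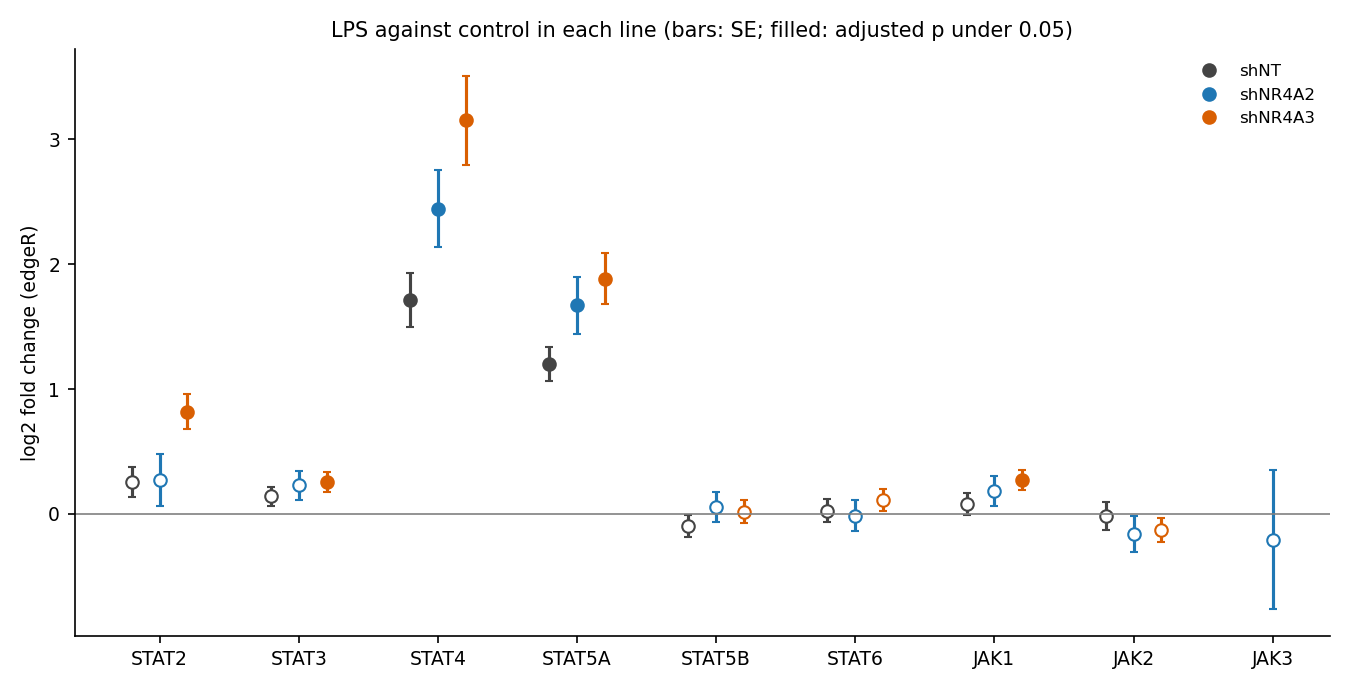
edgeR log2 fold change of LPS over control (y axis) for each gene in shNT, shNR4A2 and shNR4A3, with bars for the SE and filled points for an adjusted p under 0.05. STAT4 and STAT5A lie between 1.20 and 3.15 in the 3 lines, and STAT3 and JAK1 are called in shNR4A3 at 0.26 and 0.27.

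Whether the LPS response differed between lines was tested as an interaction in edgeR. No STAT or JAK gene and 0 genes in all passed an adjusted p under 0.05 in any of the 3 interactions, so the larger STAT4 and STAT5A values of the knockdown lines are not shown to differ from those of shNT. At an unadjusted p under 0.05 edgeR gave 4 of the 9 genes and 824 genes (5.02%) for shNR4A3 against shNT, 1 of 9 and 365 genes (2.19%) for shNR4A2 against shNT, and 0 of 9 and 396 genes (2.41%) for shNR4A2 against shNR4A3. DESeq2 called 10, 2 and 1 genes at an adjusted p under 0.05 in the same order, none of them a STAT or JAK gene listed here. For shNR4A3 against shNT the difference in log2 response was 1.44 for STAT4 (SE 0.482), 0.68 for STAT5A (SE 0.28), 0.56 for STAT2 (SE 0.203) and -2.45 for JAK3 (SE 0.946), with edgeR adjusted p of 0.886, 0.942, 0.942 and 0.942. Without shNR4A3 LPS replicate 2 the STAT4 difference was 1.77 (edgeR adjusted p = 0.0442). With no filter on low counts the edgeR adjusted p of the STAT4 and STAT5A differences was 4.605e-08 and 0.00886, and in a fit over all 18 libraries it was 1 for both.

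Replicate 2 of the LPS libraries stood apart in genes that respond to LPS. Among the 1820 genes higher with LPS in shNT, replicate 2 had the lowest of the 3 LPS values for 47.5% in shNT, 67.9% in shNR4A2 and 75.9% in shNR4A3. Over the 15697 genes tested in shNT for which this was counted, the shares were 28.4%, 35.2% and 38.7%. STAT4 and STAT5A followed this pattern in each line, and so did STAT2. Its part in the differences between lines was not tested.

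STAT5A rose from below STAT5B to above it with LPS in both knockdown lines, and to about the level of STAT5B in shNT, where the 2 genes overlapped. The ratio of STAT5A to STAT5B TPM was 0.444 ± 0.0375 (mean ± SD, n = 3) in shNT control and 1.09 ± 0.168 with LPS. It was 0.696 ± 0.0728 and 2.14 ± 0.932 in shNR4A2, and 0.588 ± 0.036 and 2.15 ± 0.693 in shNR4A3. In the LPS libraries it ran from 0.943 to 1.27 in shNT, from 1.37 to 3.18 in shNR4A2 and from 1.36 to 2.67 in shNR4A3. The ratio did not overlap between control and LPS in any line, nor between either knockdown line and shNT at the same treatment, each at the smallest p that 3 against 3 allows (exact 2-sided permutation p = 0.1, 9 comparisons in all). The knockdown lines overlapped each other without LPS (exact permutation p = 0.2) and with LPS (exact permutation p = 1). This test does not use the pairing by replicate number. Without LPS the ratio was higher in shNR4A2 than in shNR4A3 in each same-numbered pair (0.6263 and 0.5739, 0.7715 and 0.6286, 0.6889 and 0.5608). With LPS the pairs went both ways. As a share of the counts of both genes, STAT5A rose from 28.4% to 49.2% in shNT, from 38.2% to 63.9% in shNR4A2 and from 34.4% to 64.5% in shNR4A3, with no more than a 9.55 percentage point SD. The part that reads in the shared coding stretch play in this ratio was not tested.

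**Figure D3:**
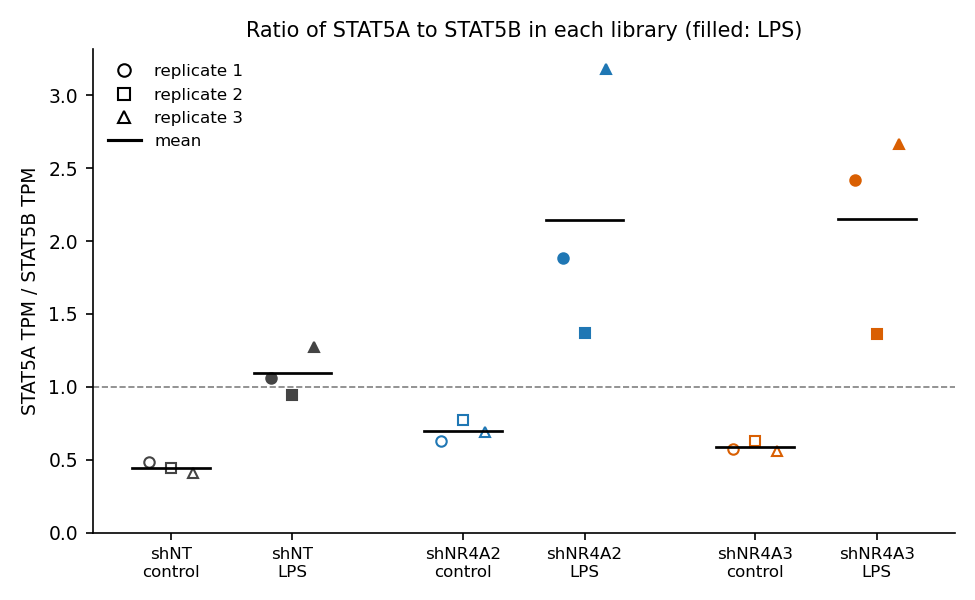
Ratio of STAT5A to STAT5B TPM (y axis from 0, dashed line at 1) in each library, with open symbols for control, filled symbols for LPS and bars for the mean of 3. Control libraries lie under 0.78, and the LPS libraries of the knockdown lines lie at 1.36 or above.

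The second comparison asked how the knockdown lines differed from shNT at the same treatment. STAT3 was lower in shNR4A2 without LPS, STAT4 was lower in shNR4A3 without LPS, and STAT5A was higher in both knockdown lines with LPS in the fit blocked by replicate number, not in the fit without the block. The 4 comparisons share shNT libraries within a treatment. Called in edgeR were 1 of 8 genes in shNR4A2 without LPS (6.45% of all genes), 0 of 9 in shNR4A2 with LPS (6.96%), 1 of 8 in shNR4A3 without LPS (7.23%) and 0 of 8 in shNR4A3 with LPS (6.45%). At an unadjusted p under 0.05 the 2 comparisons with no call held 2 of 9 (23.2% of all genes) and 4 of 8 genes (23.0% of all genes), and DESeq2 called 2 and 3, where it called 9.5% and 8.58% of all genes. In TPM the groups did not overlap for 4, 2, 2 and 4 of the 9 genes in the same order, against 25.7%, 27.2%, 24.3% and 27.9% of all genes tested. On the edgeR scale, an alternative chosen after seeing the data, the number for shNR4A2 with LPS was 4 (STAT6 and JAK1 added), against 27.3% of all genes. Blocked by replicate number in the comparisons whose same-numbered libraries deviated together, edgeR called 23.6% of all genes in shNR4A2 without LPS, 28.1% in shNR4A2 with LPS and 21.8% in shNR4A3 with LPS, and 11.6% and 23.6% between the knockdown lines without and with LPS.

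STAT3 stood at 83.2, 76.6 and 83.2 TPM in shNT control libraries and at 65.4, 57.4 and 60.2 TPM in shNR4A2 control libraries, without overlap. The log2 fold change was -0.41 (SE 0.0906, edgeR adjusted p = 0.02095), a 0.754-fold level, and the adjusted p reached 0.0971 with 1 library left out, being over 0.05 without shNT replicate 1, 2 or 3 or without shNR4A2 replicate 3. Blocked by replicate number, edgeR gave an adjusted p of 0.000305. In the LPS libraries STAT3 stood at 78.9, 78.7 and 72.6 TPM in shNT and at 58.2, 58.0 and 61.7 TPM in shNR4A2, again without overlap (log2 fold change -0.31, SE 0.0878, edgeR adjusted p = 0.0662, and 0.000274 with the block). STAT3 was also lower in shNR4A2 than in shNR4A3, by -0.41 without LPS (SE 0.0956, edgeR adjusted p = 0.0377, background 3.08%) and by -0.43 with LPS (SE 0.0886, edgeR adjusted p = 0.0474, background 2.33%). Each of these calls was lost whichever of the 6 libraries was left out (adjusted p up to 0.157 and 0.196), and with the block they were 0.00249 and 7.69e-05. The knockdown lines did not overlap in TPM for 2 of the 9 genes without and 1 with LPS, where 19% and 21.1% of all genes tested did not, and on the edgeR scale for 2 with LPS (STAT6 added, 23.1% of all genes). Of the 18 libraries, the 6 of shNR4A2 had the lowest STAT3 values.

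Without LPS, no STAT4 value of either knockdown line reached the lowest shNT library at 4.56 TPM. The log2 fold change in shNR4A3 was -1.04 (SE 0.244, edgeR adjusted p = 0.0201). This call was lost without shNT replicate 1 or 3 or shNR4A3 replicate 1 or 2 (adjusted p up to 0.0743), and in a fit over all 18 libraries (edgeR adjusted p = 0.173). In shNR4A2 the log2 fold change was -0.72 (SE 0.2085, edgeR adjusted p = 0.067, 0.00817 with the block, and 0.019 without shNT replicate 2). With LPS the STAT4 ranges overlapped between the lines, at log2 fold changes of 0.01 in shNR4A2 (SE 0.338, edgeR adjusted p = 0.99) and 0.40 in shNR4A3 (SE 0.325, edgeR adjusted p = 0.508). The latter was 0.73 without shNR4A3 LPS replicate 2 (edgeR adjusted p = 0.0294).

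With LPS, STAT5A was above shNT by 0.87 in shNR4A2 (SE 0.252, edgeR adjusted p = 0.0737) and by 0.78 in shNR4A3 (SE 0.215, edgeR adjusted p = 0.0639). Blocked by replicate number, these adjusted p were 1.94e-11 and 4.94e-05, and without LPS replicate 2 of the knockdown line they were 0.0159 and 0.000942. In a fit over all 18 libraries they were 0.0248 and 0.0537. The TPM did not overlap between shNR4A2 and shNT, and those of shNR4A3 and shNT overlapped, since its replicate 2 (35.0 TPM) was below the highest shNT library (35.6 TPM; exact 2-sided permutation p = 0.2). STAT2 in shNR4A3 with LPS was above shNT by 0.55 (SE 0.153, edgeR adjusted p = 0.0637, 0.000128 with the block, 0.00267 without shNR4A3 LPS replicate 2), and STAT6 by 0.29 (SE 0.0759, edgeR adjusted p = 0.0503, 0.00232 with the block). Without LPS, STAT5A was above shNT by 0.40 in shNR4A2 (SE 0.133, edgeR adjusted p = 0.108, 0.00782 with the block) and STAT5B was below by -0.24 (SE 0.102, edgeR adjusted p = 0.194, 0.0191 with the block). Between the knockdown lines the block also brought STAT5A without LPS (log2 difference 0.30, shNR4A2 over shNR4A3, edgeR adjusted p = 0.3, 0.0372 with the block) and, with LPS, STAT2 (-0.54, 0.262 and 0.00135), STAT4 (-0.38, 0.707 and 0.0208) and STAT6 (-0.15, 0.363 and 0.0328) under the threshold. JAK1 and JAK2 were not called in any comparison of lines, without or with the block, and their log2 fold changes without it lay between -0.08 and 0.16.

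**Figure D4:**
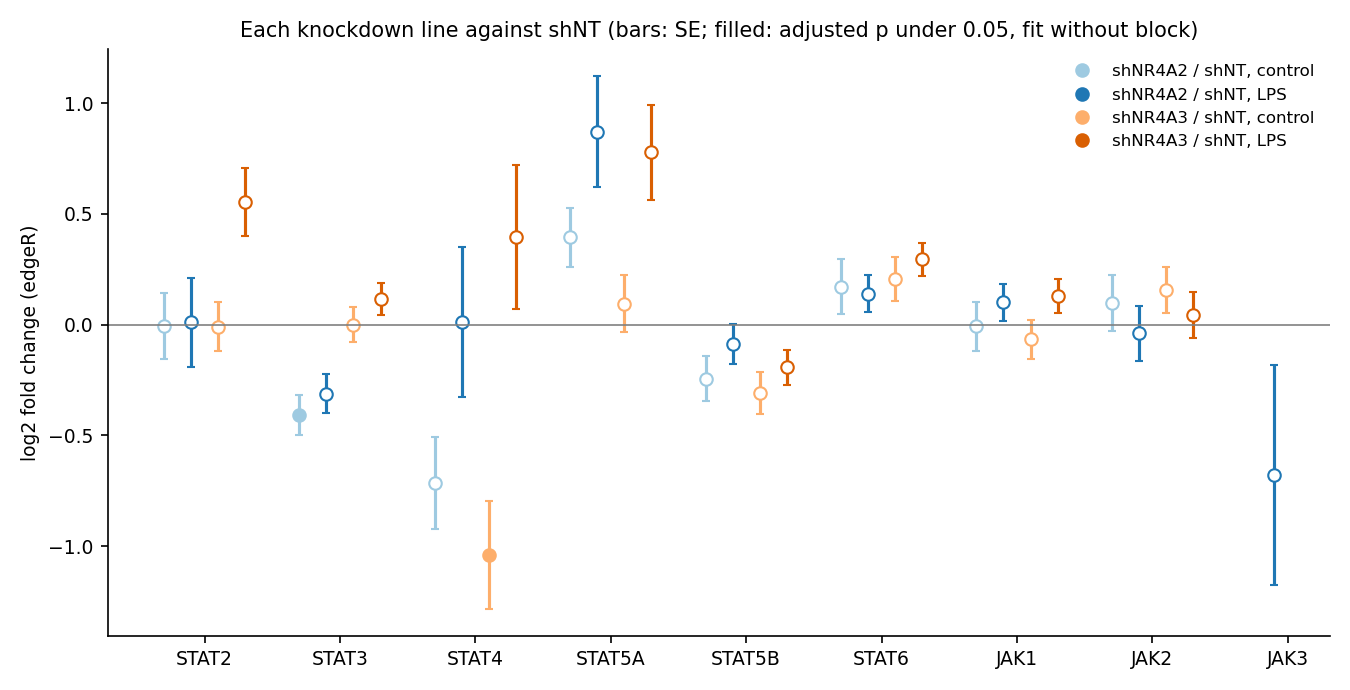
edgeR log2 fold change of each knockdown line over shNT (y axis), without and with LPS, with bars for the SE and filled points for an adjusted p under 0.05 in the fit without the block. STAT3 in shNR4A2 control (-0.41) and STAT4 in shNR4A3 control (-1.04) are filled; JAK3 is drawn where it was tested.

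Genes of the same pathway were counted from lists of ligands, receptors, inhibitors, partners and targets. Of the 16 ligands, 7 of 8 tested were higher with LPS in shNT, 9 of 10 in shNR4A2 and 9 of 10 in shNR4A3, and the other 1 in each line was not called. Several of these ligands had enough counts to be tested only because of their LPS libraries (among them IL6 and IL12B in shNT). Such a gene could be called higher or not called, and hardly lower. These numbers are therefore a description and are not read against the share of all genes called. IL12B, which encodes the p40 subunit shared by IL-12 and IL-23, received 3, 2 and 2 counts in shNT control libraries and 1108, 1006 and 1286 with LPS. IL23A, which completes IL-23, went from 11.1, 12.8 and 12.2 TPM to 776, 754 and 1088 TPM in shNT (log2 fold change 6.41, SE 0.177, edgeR adjusted p = 5.74e-12). IL6 had 0 counts in the shNT control libraries and 43, 15 and 29 with LPS, and with LPS it was higher than in shNT in shNR4A2 (log2 fold change 1.69, SE 0.372, edgeR adjusted p = 0.0272) and in shNR4A3 (1.83, SE 0.434, edgeR adjusted p = 0.0343). IL7 was higher than in shNT in both lines with LPS as well (1.46 and 1.94, edgeR adjusted p = 0.0341 and 0.0107). It was too low to be tested for LPS in shNT, and it had enough counts here only because of the knockdown libraries. LIF, a cytokine of the IL-6 family, stood at 22.5, 22.0 and 14.5 TPM in shNT with LPS and at 8.29, 8.70 and 5.74 TPM in shNR4A3 with LPS, without overlap (log2 fold change -1.32, SE 0.192, edgeR adjusted p = 0.00411). In shNR4A2 with LPS the log2 fold change of LIF was -0.56 (SE 0.177, edgeR adjusted p = 0.095, and 2.6e-05 with the replicate block). Against shNT with LPS, 2 of 10 ligands were higher and 0 lower in shNR4A2 (6.96% of all genes called), and 3 of 11 were higher and 1 lower in shNR4A3 (6.45%). With the replicate block these counts were 5 and 2 in shNR4A2 (28.1% of all genes) and 5 and 1 in shNR4A3 (21.8%). Each count of higher ligands includes IL7 and is therefore a description, not read against these shares. Without LPS 0 of 5 and 0 of 4 ligands were called, without or with the block.

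Of the 24 receptor genes tested, 9 were higher and 3 lower with LPS in shNT, 6 and 3 in shNR4A2, and 7 and 5 in shNR4A3, or 12 of 24, 9 of 24 and 12 of 24 called, where 24.9%, 19.3% and 28.1% of all genes were. With the replicate block the counts were 12 and 4 in shNR4A2, where 30.1% of all genes were called, and 10 and 5 in shNR4A3, where 39.4% were. IL7R was the receptor gene with the largest rise in each line, and in shNT control, shNR4A2 control and shNR4A3 control it stood at 6.65 ± 1.14, 26.0 ± 2.53 and 12.4 ± 2.32 TPM (n = 3 each). It was above shNT by 1.97 in shNR4A2 (SE 0.138, edgeR adjusted p = 2.05e-05) and by 0.95 in shNR4A3 (SE 0.158, edgeR adjusted p = 0.00248). IL2RG, the receptor chain on which JAK3 sits, was lower in both, at 3.62 ± 0.17 TPM in shNT control against 1.73 ± 0.247 and 1.37 ± 0.595 TPM (log2 fold changes -1.05 and -1.36, edgeR adjusted p = 0.0196 and 0.0176). IL21R, another receptor that uses this chain, was lower with LPS in each line, by -1.70, -1.31 and -1.91 in shNT, shNR4A2 and shNR4A3. OSMR, the oncostatin M receptor, was higher in shNR4A2 than in shNT without LPS (log2 fold change 1.67, SE 0.314, edgeR adjusted p = 0.00765), at no more than 1.90 TPM in any of these 6 libraries. Against shNT, 6 receptor genes were higher and 1 lower in shNR4A2 without LPS and 7 and 1 with LPS, and 7 and 1 in shNR4A3 without LPS and 6 and 1 with LPS, where 6.45%, 6.96%, 7.23% and 6.45% of all genes were called. With the replicate block these counts were 10 and 4 in shNR4A2 without LPS (23.6% of all genes), 13 and 4 with LPS (28.1%), and 11 and 3 in shNR4A3 with LPS (21.8%).

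Of 18 inhibitors tested, 6 were higher and 5 lower with LPS in shNT, 5 and 3 in shNR4A2, and 6 and 7 in shNR4A3, where 24.9%, 19.3% and 28.1% of all genes were called. With the replicate block the counts were 6 and 7 in shNR4A2 (30.1% of all genes) and 6 and 8 in shNR4A3 (39.4%). SOCS3, which curbs IL-6 receptor signalling, rose from 8.71 ± 1.63 to 307 ± 32.2 TPM in shNT (n = 3), and its log2 fold change was 5.36, 5.50 and 5.58 in the 3 lines (edgeR adjusted p = 3.76e-12, 4.31e-09 and 7.19e-09). CISH, a feedback inhibitor that STAT5 proteins are known to induce, fell by 2.14, 2.27 and 2.27 on the log2 scale (edgeR adjusted p = 1.31e-06, 6.41e-06 and 2.7e-06), in the same libraries in which STAT5A rose. SOCS1 fell by 2.00 in shNT and by 1.37 in shNR4A3 on the log2 scale, and in shNR4A2 its value was -0.72 (SE 0.248, edgeR adjusted p = 0.0612, and 0.0377 with the replicate block). SOCS2, also known as a STAT5 target, was below shNT in shNR4A2 without LPS (-1.18, SE 0.18, edgeR adjusted p = 0.00301) and with LPS (-1.49, SE 0.297, edgeR adjusted p = 0.0184). In shNR4A3 it was below shNT with LPS (-0.88, SE 0.213, edgeR adjusted p = 0.0388), and its value without LPS was -0.31 (SE 0.177, edgeR adjusted p = 0.353). Against shNT, 1 inhibitor was higher and 1 lower in shNR4A2 without LPS and 0 and 1 with LPS, and 1 and 0 in shNR4A3 without LPS and 1 and 1 with LPS. With the replicate block these counts were 2 and 2 in shNR4A2 without LPS, 2 and 4 with LPS, and 4 and 3 in shNR4A3 with LPS, against the shares of all genes given for the receptors.

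Of 12 partners and targets tested, 9, 8 and 9 were higher with LPS in shNT, shNR4A2 and shNR4A3, and MYC was the 1 lower in each. Of all genes, 24.9%, 19.3% and 28.1% were called. The number higher in shNR4A3 was 10 with the replicate block, where 39.4% of all genes were called. The adhesion molecule ICAM1 rose by 5.66, 6.10 and 6.37 and the repressor BCL6 by 3.65, 3.36 and 4.06 on the log2 scale. Against shNT without LPS, 2 were higher in shNR4A2 (A2M and BCL6) and 2 in shNR4A3 (A2M and BCL3), and MYC was lower in shNR4A2, where 6.45% and 7.23% of all genes were called. With LPS 3 were higher in shNR4A2 and 6 in shNR4A3, where 6.96% and 6.45% of all genes were called. Blocked by replicate number, 5 were higher in shNR4A2 without LPS (23.6% of all genes called), and with LPS 9 in shNR4A2 (28.1%) and 11 in shNR4A3 (21.8%). A2M, a protease inhibitor induced through STAT3 in liver, was above shNT by 1.04 in shNR4A2 control (SE 0.147, edgeR adjusted p = 0.00196), the group in which STAT3 was lower, and by 0.67 in shNR4A3 control (SE 0.188, edgeR adjusted p = 0.0461), where the log2 fold change of STAT3 was -0.00 (SE 0.0774, edgeR adjusted p = 1).

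Among 15 interferon targets, 7 were higher with LPS in shNT, 5 in shNR4A2 and 13 in shNR4A3, where 24.9%, 19.3% and 28.1% of all genes were called, and the rest of the list was not called. CXCL10, GBP2 and GBP1 led in each line. GBP1, and CXCL10 in shNT and shNR4A2, had enough counts for these LPS comparisons only because of the LPS libraries. Such a gene could be called higher or not called, and hardly lower. The counts for LPS against control and this order are therefore a description, not read against the shares of all genes. Against shNT with LPS, 12 of 15 were higher in shNR4A3 (6.45% of all genes called) and 2 of 15 (GBP2 and GBP1) in shNR4A2 (6.96%), with a median log2 fold change of 0.90 and 0.37 over the list and -0.01 and -0.00 over all genes tested. Without LPS, 5 of 14 were already higher than in shNT in shNR4A3 (IFI6, IFI44L, IFIT3, OAS1 and MX2, 7.23% of all genes called) and 1 of 13 (GBP2) in shNR4A2 (6.45%), with medians of 0.51 and 0.14 over the list. Blocked by replicate number, 1 was higher and 2 were lower in shNR4A2 without LPS (23.6% of all genes). GBP1 was too low to be tested between the lines without LPS. IFIT3 stood at 33.9, 32.0 and 35.2 TPM in shNT with LPS, at 86.6, 61.2 and 80.9 TPM in shNR4A3 with LPS and at 37.1, 34.0 and 61.4 TPM in shNR4A2 with LPS. The shNR4A3 libraries were above the shNT libraries without overlap (log2 fold change 1.24, SE 0.15, edgeR adjusted p = 0.00174). In the direct comparison of the knockdown lines with LPS, the log2 difference of IFIT3 was -0.79 for shNR4A2 over shNR4A3 (SE 0.25, edgeR adjusted p = 0.148) with a median of -0.51 over the list, and 0 of the 15 genes were called. Blocked by replicate number, which pairs the libraries of this comparison, edgeR called 13 of 15 lower and 1 higher in shNR4A2 than in shNR4A3, where it called 23.6% of all genes. IFIT3 then had a log2 difference of -0.81 (SE 0.118, edgeR adjusted p = 0.000437) and was lower in shNR4A2 in each of the 3 same-numbered pairs. The 1 higher gene was GBP2 (0.27, SE 0.0692, edgeR adjusted p = 0.0132). Against shNT with LPS the block gave 14 of 15 higher in shNR4A3 (21.8% of all genes called) and 8 higher and 2 lower in shNR4A2 (28.1%). For LPS against control it gave 9 of 15 higher in shNR4A2 (30.1% of all genes) and 15 of 15 in shNR4A3 (39.4%). IFNB1, the type I interferon induced by LPS, had 0 counts in shNT and shNR4A3 control libraries, and with LPS 10, 19 and 15 in shNT, 18, 13 and 20 in shNR4A2 and 16, 17 and 12 in shNR4A3.

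**Figure D5:**
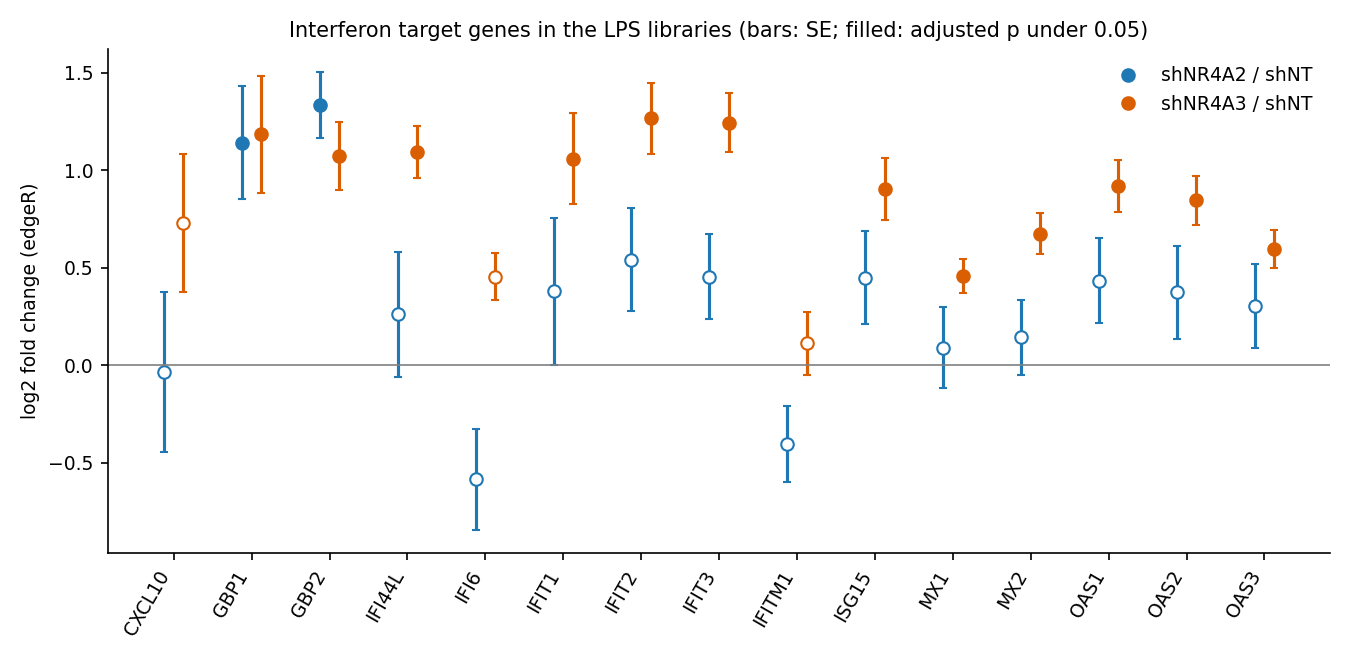
edgeR log2 fold change over shNT (y axis) of the 15 interferon targets in the LPS libraries of shNR4A2 and shNR4A3, with bars for the SE and filled points for an adjusted p under 0.05 in the fit without the block. In shNR4A3 12 genes are filled and in shNR4A2 GBP1 and GBP2 are.

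Genes with the most similar pattern were ranked by Pearson's r of log2 CPM over the 18 libraries, among 13940 genes with a symbol and a mean of at least 1 CPM. All libraries share the 3 lines and the LPS contrast, so r describes these groups and is given without a test. STAT5A was closest to PIM1, a serine/threonine kinase known as a STAT5 target (r = 0.985), and to ELOA (0.979). PIM1 stood at 67.0, 51.8 and 75.6 TPM in shNT with LPS, at 92.9, 72.0 and 148 TPM in shNR4A2 and at 93.8, 67.5 and 119 TPM in shNR4A3, the same order of replicates as STAT5A within each line. That order is not particular to this pair. Replicate 2 was the lowest LPS library for 47.5%, 67.9% and 75.9% of the 1820 genes higher with LPS in shNT (shNT, shNR4A2 and shNR4A3). STAT4 was closest to KYNU, the kynureninase of tryptophan breakdown (0.988), and USP12 (0.976), and STAT2 to IFIT5, an interferon-induced RNA-binding protein (0.914), and TTL (0.902). STAT3 was closest to MCCC2 (0.952) and PTPN12 (0.948), STAT6 to DBNL (0.924) and MROH1 (0.901), JAK1 to KPNA4 (0.901), STAT5B to CUL7 (0.873) and DCHS1 (0.862), and JAK2 to BNIP2 (0.877) and NCEH1 (0.842). JAK3, with few counts, was closest to TIE1 at 0.742. After subtracting group means, r was 0.945 for STAT5A with PIM1, 0.948 for STAT4 with KYNU and 0.837 for STAT2 with IFIT5. It was lower for STAT3 with MCCC2 (0.572) and PTPN12 (0.586) and for STAT5B with DCHS1 (0.558), so that more of their r over the 18 libraries comes from the group means. How far the r left after this subtraction reflects the replicate pattern shared by genes that respond to LPS was not tested.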

How the data were processed

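RNA from THP-1 lines carrying shNT, shNR4A2 or shNR4A3, without or with LPS, had been sequenced as 18 polyA-selected libraries. The deposited files hold raw counts per Ensembl gene and library, and per the file headers a gene length, the merged exon bases. The submitters' processing notes name Trimmomatic 0.36, STAR 2.5.2b, featureCounts of Subread 1.5.2 and GRCh38. Strand and multi-mapping settings are not given in the sources used here, so reads from overlapping or near-identical genes may be split. Symbols came from GENCODE 29 and matched 56898 of 57500 genes.

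Differences were tested on the counts with edgeR 4.0.16 (filterByExpr, TMM, quasi-likelihood F test, Benjamini-Hochberg adjustment over all genes tested, R 4.3.3), each comparison on its own libraries. Levels are TPM, computed from counts and lengths. Other tests were exact 2-sided permutation tests of the difference in means. The edgeR and DESeq2 fits without the block were tested on simulated data for some of the comparisons. The simulated counts held no replicate effect, and the fit with the block was not tested in this way. Alternatives were DESeq2 1.42.0, RLE scaling, no filter, blocking by replicate number, all 18 libraries in 1 fit, leaving out each library, and TPM without mitochondrial genes.

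Same-numbered libraries deviated together (r over 16866 genes at least 0.137 in every pair) in all comparisons of 2 groups but LPS in shNT (lowest r 0.013) and shNR4A3 against shNT without LPS (0.078). This pairing comes from the data, and the blocked value is given beside printed calls that it changes and counts that it moves by over 1.5 times. For comparisons not taken as paired, such values are given under the dependence on the processing. Named were the STAT and JAK genes, the hairpin targets, at most 3 called genes a direction, list and comparison with the largest change, the 2 nearest genes of each member, and marker genes, of which some are not reported here. IRF9, IL23A in shNT, SOCS1 in shNR4A2, LIF in shNR4A2, interferon targets without LPS, SOCS2 in shNR4A3 without LPS, IFIT3 and GBP2 between the knockdown lines and IFNB1 were added after their values were seen. The genes and lists were chosen with earlier results of these data known.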

Additional observations from a re-analysis of the deposited data

How the results depend on the processing

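No STAT or JAK gene changed direction between a call and its alternatives. STAT4 and STAT5A remained called for LPS in each line under every alternative. Numbers of called STAT and JAK genes moved elsewhere, and the cause was not tested. The number of all genes called under the same setting is given in brackets, with its share of the genes tested where known. For LPS in shNR4A3 it was 3 with no filter (all genes: 4662). For LPS in shNR4A2 it was 3 in the fit of all 18 libraries (all genes: 4601), with STAT3 added (edgeR adjusted p = 0.0303). For shNR4A2 against shNT without LPS it was 2 by DESeq2 (all genes: 1291), 2 with no filter (1611) and 4 with the replicate block (3733, 23.6%). With LPS it was 2 by DESeq2 (1434, 9.5%), 1 with no filter (1843), 2 with the replicate block (4385, 28.1%) and 2 in the fit of all 18 libraries (1691). For shNR4A3 against shNT without LPS it was 3 with the replicate block (all genes: 2267), with STAT5B and STAT6 added (adjusted p = 0.0185 and 0.0498 by edgeR). There the fit of all 18 libraries (879) also gave 1 but called STAT5B (edgeR adjusted p = 0.0424) and not STAT4. With LPS it was 3 by DESeq2 (1294, 8.58%), 1 with RLE scaling (1002), 2 with no filter (1839) and 3 with the replicate block (3401, 21.8%). Between the knockdown lines it was 2 with the replicate block without LPS (all genes: 1800, 11.6%). With LPS it was 2 with no filter (1102) and 4 with the replicate block (3666, 23.6%). For the interaction of shNR4A3 and shNT it was 2 with no filter (all genes: 138). For LPS in shNT, where same-numbered libraries did not deviate together, the replicate block gave STAT2 an edgeR adjusted p of 0.0362, and JAK3, not tested in the reported fit, was at 0.0384 by DESeq2, 0.00222 with no filter and 0.0238 in the fit of all 18 libraries. The replicate block changed no call of a STAT or JAK gene beyond these and those given above.

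The replicate block also took the interferon targets from 7 to 11 higher for LPS in shNT and from 5 to 8 for shNR4A3 against shNT without LPS, where the libraries are not taken as paired. For shNR4A3 against shNT without LPS it also took the partners and targets from 2 to 5 higher. The receptor genes went from 7 to 9 higher and from 1 to 2 lower there. The block raised the calls among all genes tested as well. They went from 3909 to 5029 of 15711 for LPS in shNT. In shNR4A3 against shNT without LPS they went from 1108 to 2267 of 15322. Over all genes, calls for LPS in shNR4A2 went from 3050 to 4751 with the replicate block and 4601 in the fit of all 18 libraries. For shNR4A2 against shNT without LPS they went from 1019 to 1611 with no filter and 3733 with the replicate block, and with LPS from 1085 to 1843 with no filter, 4385 with the replicate block and 1691 in the fit of all 18. For shNR4A3 against shNT they went from 1108 to 2267 with the replicate block without LPS, and from 1005 to 1839 with no filter and 3401 with the replicate block with LPS. Between the knockdown lines they went from 480 to 838 with no filter and 1800 with the replicate block without LPS, and from 362 to 700 by DESeq2, 1102 with no filter, 3666 with the replicate block and 1032 in the fit of all 18 with LPS. DESeq2 called 1291 and 1434 genes for shNR4A2 against shNT without and with LPS, and for shNR4A3 against shNT with LPS DESeq2 called 1294 and RLE scaling 1002. No filter gave 4662 for LPS in shNR4A3. In the interactions of shNR4A2 with shNT, shNR4A3 with shNT and shNR4A2 with shNR4A3, where edgeR called 0 genes, DESeq2 called 2, 10 and 1, no filter gave 29, 138 and 29, and the replicate block gave 8 and 22 in the first pair.

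With 1 library left out, called STAT and JAK genes and all called genes ranged as follows. They were 2 to 3 and 3033 to 3461 for LPS in shNT, 2 to 2 and 2113 to 3375 in shNR4A2, and 3 to 5 and 3136 to 4863 in shNR4A3. They were 0 to 2 and 517 to 1128 for shNR4A2 against shNT without LPS, and 0 to 1 and 342 to 1477 with LPS. They were 0 to 1 and 649 to 975 for shNR4A3 against shNT without LPS, and 0 to 3 and 383 to 1693 with LPS. Between the knockdown lines they were 0 to 0 and 249 to 470 without LPS, and 0 to 0 and 94 to 217 with LPS. In the 3 interactions, in the order above, they were 0 to 0 and 0 to 8, 0 to 1 and 0 to 44, and 0 to 0 and 0 to 0. The summed level of the 9 genes, 380.9, 372.9, 373.3, 381.1, 377.0 and 426.9 TPM in shNT, shNR4A2 and shNR4A3 (control, then LPS, in each), became 414.9, 404.5, 409.6, 415.9, 413.1 and 468.3 TPM without mitochondrial genes. JAK3 had the lowest level of the 9 genes and too few counts to be tested in several comparisons.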
